A study of Mus musculus with 1 sample.

Results

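The 8 genes described here encode effector molecules and surface receptors of basophils and mast cells: Mcpt8, Cpa3, Ms4a2, Prss34, Gzmb, Fcer1a, Cd200r3 and Alox5. They are 8 of the 25661 genes of a count table from 1 single-cell RNA-seq library of mouse bone marrow, and all 8 were listed in it. Sorted progenitors were given 5 barcoded streptavidin tags (A961 to A965) and then loaded as one pool onto a BD Rhapsody microwell cartridge. The sorted populations were GMP-MoPs and cKit+Lin- progenitors of 1 mouse injected with LPS (lipopolysaccharide, a bacterial cell wall component) and of 1 naive mouse, and cMoPs of 1 naive mouse. The labels give no strain, genotype or age, and they tie no tag to a population or a mouse, so A965 and A963 are compared below only as tags.

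Basophils and mast cells carry the high-affinity IgE receptor, and allergen that cross-links receptor-bound IgE makes them release granules and lipid mediators. Both cell types arise in bone marrow from progenitors that express the transcription factor GATA2, and basophils leave the marrow mature whereas mast cells mostly finish their development in tissues. In the mouse, Mcpt8 and Prss34 encode granule proteases best known from basophils, Cpa3 encodes a carboxypeptidase stored in mast cell granules, and Gzmb encodes a cytotoxic granule protease best known from natural killer cells and T cells. Fcer1a and Ms4a2 encode the alpha and beta chains of the IgE receptor, Cd200r3 encodes an activating receptor of the CD200 receptor family, and Alox5 encodes 5-lipoxygenase, the enzyme that starts leukotriene synthesis.

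Per GENCODE M21 (GRCm38), the genes lie on 7 chromosomes. Mcpt8 (chr14:56082166-56085273, minus strand) and Gzmb (chr14:56258838-56262260, minus strand) share a chromosome and lie 173.6 kb apart. Cpa3 is at chr3:20215620-20242181 (minus), Ms4a2 at chr19:11615523-11623719 (minus) and Prss34 at chr17:25298394-25300165 (plus). Fcer1a is at chr1:173221284-173227214 (minus), Cd200r3 at chr16:44943678-44981380 (plus) and Alox5 at chr6:116410077-116461178 (minus). All 8 are annotated as protein-coding.

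The promoters of Ms4a2, Cpa3, Prss34 and Mcpt8 are shown because these 4 genes were the ones most often counted together in the same cells, and because GATA factors act in this lineage. Each sequence runs 5′ to 3′ on the gene's strand from 250 bases before to 50 bases after the RefSeq start (GRCm38.p6), and capitals mark GATAA or its reverse complement TTATC. The windows are chr19:11623670-11623969 (minus), chr3:20242132-20242431 (minus), chr17:25298144-25298443 (plus) and chr14:56085148-56085447 (minus).
Ms4a2: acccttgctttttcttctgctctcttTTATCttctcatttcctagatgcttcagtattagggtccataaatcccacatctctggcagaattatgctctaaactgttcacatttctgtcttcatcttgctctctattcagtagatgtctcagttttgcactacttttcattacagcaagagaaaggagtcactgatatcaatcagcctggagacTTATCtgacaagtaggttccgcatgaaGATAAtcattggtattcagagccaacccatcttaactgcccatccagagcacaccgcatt
Cpa3: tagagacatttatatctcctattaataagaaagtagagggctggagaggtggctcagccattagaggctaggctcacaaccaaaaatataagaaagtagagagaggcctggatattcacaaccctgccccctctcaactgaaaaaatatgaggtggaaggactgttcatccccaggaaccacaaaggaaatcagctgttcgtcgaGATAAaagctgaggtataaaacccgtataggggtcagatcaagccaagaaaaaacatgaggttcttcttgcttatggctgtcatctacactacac
Prss34: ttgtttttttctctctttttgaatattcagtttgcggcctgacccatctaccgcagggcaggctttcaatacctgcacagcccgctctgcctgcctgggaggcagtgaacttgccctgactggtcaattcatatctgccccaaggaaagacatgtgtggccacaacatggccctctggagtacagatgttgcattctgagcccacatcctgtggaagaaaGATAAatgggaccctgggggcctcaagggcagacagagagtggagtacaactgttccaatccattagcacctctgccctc
Mcpt8: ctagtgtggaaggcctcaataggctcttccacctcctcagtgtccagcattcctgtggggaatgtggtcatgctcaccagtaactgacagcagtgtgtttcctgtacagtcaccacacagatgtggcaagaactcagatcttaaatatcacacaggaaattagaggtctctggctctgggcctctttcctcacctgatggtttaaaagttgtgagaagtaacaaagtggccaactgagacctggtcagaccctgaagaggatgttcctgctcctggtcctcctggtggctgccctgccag
The Ms4a2 window held 3 matches, Cpa3 held 1, Prss34 held 1 and Mcpt8 held 0. Of the windows not shown, Cd200r3 held 2, Fcer1a held 1, Alox5 held 1 and Gzmb held 0. GATAA on either strand occurred in 25.4% of the 32851 mouse promoter windows of this length, against 6 of the 8 windows here. The letters TGTGGT, searched on both strands, occurred in 4 of the 8 windows (Mcpt8, Gzmb, Cpa3 and Fcer1a) and in 16.8% of all windows. TTGCNNAA occurred in 2 of the 8 (Fcer1a and Cd200r3) and in 10.8% of all windows. These are letter matches only.

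After a filter on genes per cell and mitochondrial counts, 10528 cells carried a single tag. A965 had 5567 cells and A963 had 4716, and the small tags had 68 (A961), 104 (A962) and 73 (A964). Loaded cells were given as 15000 each for A965 and A963 and 100 for each small tag. Median counts per cell lay between 20430.5 (A963) and 27801 (A964). Xist, the RNA of the inactive X chromosome, was at 11.8 CPM in A965 and 611 CPM in A963 (CPM are counts scaled to a total of 1000000), while Y-linked genes were at 79.5 CPM in A965 and 6.46 CPM in A963. Sex, mouse, treatment and tag therefore cannot be told apart in a comparison of A965 with A963. A961 and A962 carried both kinds of transcript, with Xist at 486 and 409 CPM and Y-linked genes at 39.2 and 21.0 CPM. In A964 Xist was at 59.7 CPM and Y-linked genes at 86.0 CPM. The cause of this mixture was not tested. No tag had a replicate, so no test was possible and intervals (95%) cover counting error only. They are narrower than the true uncertainty wherever a few cells hold most of a gene's counts.

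Cells were gated on lists of 8 lineage markers each, none of which contained any of the 8 genes. Each cell was first thinned at random to 8800 counts, so that deep and shallow cells could be compared, and a cell entered the gate with most markers on if at least 3 were on. The basophil/mast gate used Hdc, Cyp11a1, Gata2, Lmo4, Slc18a2, Il1rl1, Csf1 and Il4, and held 53 cells. Gata2 was on in 88.7% of them, Lmo4 in 96.2% and Hdc, the enzyme that makes histamine, in 81.1%. Lower shares had Il4 on (13.2%), Il1rl1 (15.1%) and Csf1 (35.8%). Outside the gate Lmo4 was on in 23.3% of cells, Hdc in 6.82% and Gata2 in 1.46%. The shares inside follow in part from the rule that at least 3 markers be on. The gate does not separate basophils from mast cells, and the mast cell protease genes Cma1, Tpsb2, Tpsab1, Mcpt1 and Mcpt4 were not analysed here. The cells also carried transcripts of granulocyte-monocyte progenitors. The summed counts of Mpo, Elane, Prtn3, Ctsg, Ms4a3, Prss57, Gfi1 and Nkg7 had a median of 47 per thinned cell (3 to 185) in the basophil/mast gate, against 192 in the granule progenitor gate that these 8 markers define. The later neutrophil granule markers had a median of 8 in the basophil/mast gate, against 1096 in the neutrophil gate. The gate rule limits both sums in part, since a cell with as many or more markers of another list on could not enter.

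The basophil/mast gate held 27 of the A965 cells and 26 of the A963 cells, and none of the small tags. Its share was 0.485% of A965 (0.320 to 0.705%, exact binomial interval) and 0.551% of A963 (0.360 to 0.807%). The ratio of the shares was 0.880 (0.494 to 1.57), so a difference between the tags was not detectable at this number of cells. By the same interval, a count of 0 allows a share of up to 5.28% in A961, 3.48% in A962 and 4.93% in A964.

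All 7 genes with enough counts for a ratio (at least 100 in all) were at least 2-fold higher in the basophil/mast gate than in all other cells, against 23.2% of the 16066 genes measured this way. Their median log2 ratio was 7.34, against 0.17 over all those genes. Apart from Alox5, each was more than 100-fold higher, and 5 of them were among the 10 highest ratios of these genes. The size for the lower genes depended on the scale: with 10 CPM added to both sides the ratio was 81.0 for Cpa3, 76.7 for Ms4a2, 34.5 for Fcer1a and 13.97 for Cd200r3, and with median-of-ratios scaling it was 90.3 for Cpa3.

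The proteases came first. Prss34 reached 12150.8 CPM in the gate and 63.3 CPM in the rest, a ratio of 192 (187 to 196), second among the genes with at least 100 counts after Csrp3, a muscle LIM protein gene, at 194-fold. Mcpt8 reached 7138 CPM in the gate and 40.8 CPM in the rest, a ratio of 175 (169.7 to 180.5). Cpa3 reached 2514 CPM in the gate and 21.2 CPM in the rest, a ratio of 119 (113 to 125). These proteases differed in how many gated cells contained them. Cpa3 was counted in 98.1% of the thinned gate cells (89.9 to 100.0%), Mcpt8 in 83.0% (70.2 to 91.9%) and Prss34 in 73.6% (59.7 to 84.7%).

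Both chains of the IgE receptor followed the same pattern. Ms4a2, the beta chain, was at 1361 CPM in the gate and 7.86 CPM in the rest (173-fold, 161 to 186), with counts in 98.1% of gate cells. Fcer1a, the alpha chain that binds IgE, was at 426 CPM in the gate and 2.63 CPM in the rest (162-fold, 143 to 183), with counts in 49.1% of gate cells (35.1 to 63.2%). Cd200r3 was at 143 CPM in the gate and 0.935 CPM in the rest (153-fold, 123 to 189), with counts in 37.7% of gate cells (24.8 to 52.1%). A count of 0 in a cell thinned to 8800 counts does not show that the cell lacked Fcer1a or Cd200r3.

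Alox5 stood apart from the other genes. It was at 252 CPM in the gate and 42.6 CPM in the rest, a ratio of 5.91 (5.14 to 6.76), which was rank 546 of 16066. It was counted in 81.1% of gate cells but also in 23.2% of all other cells. Only 1.67% of its counts came from the gate, against 25.4% for Cpa3 and 35.5% for Prss34.

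**Figure D1:**
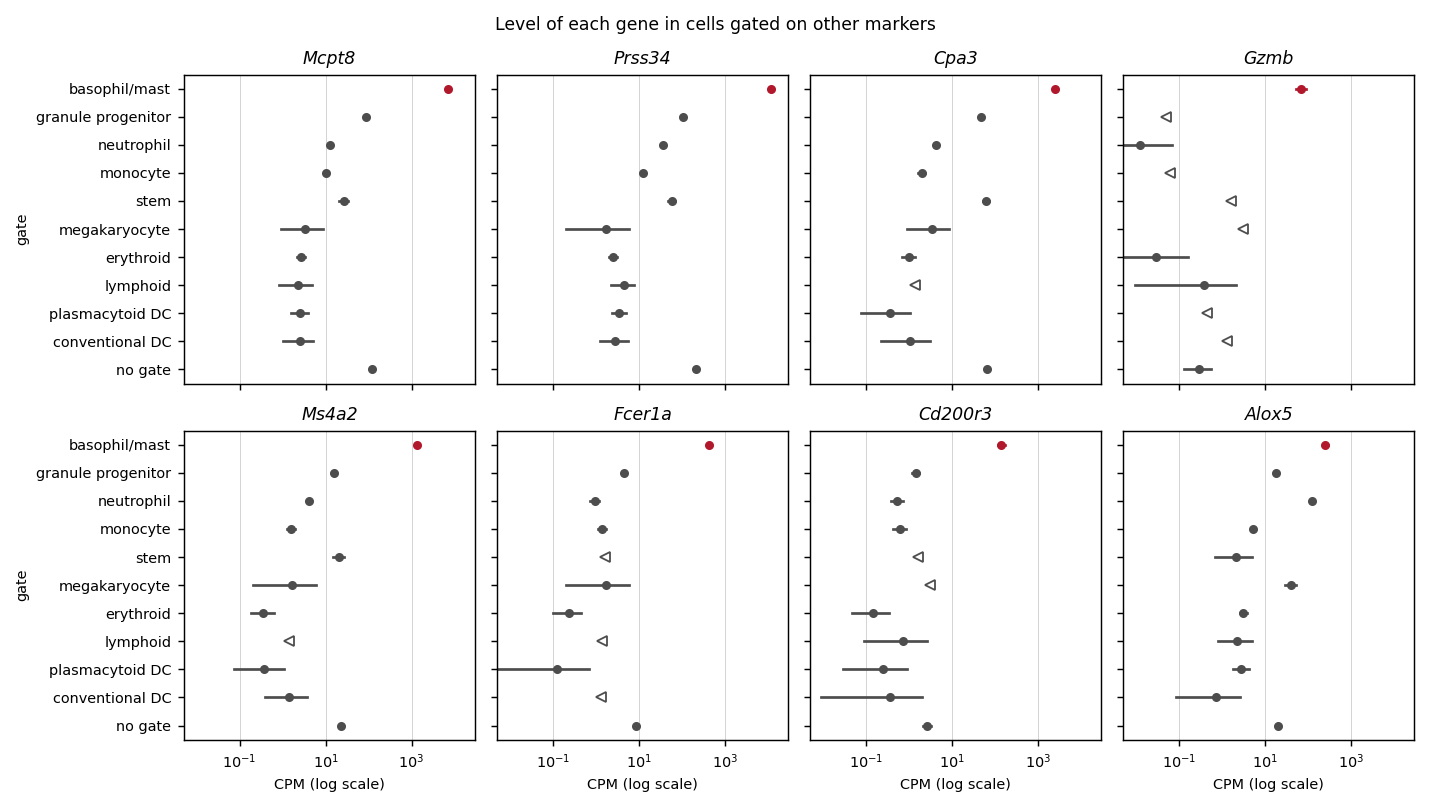
Level of each gene in each gate, in CPM of summed counts on a log axis, with exact 95% Poisson intervals; the basophil/mast gate is in red and open triangles mark the upper limit that a count of 0 allows. All genes but Gzmb and Alox5 are far higher in the basophil/mast gate than in any other gate; Gzmb, also highest there among the gates drawn, was higher in the natural killer and T cell gate, whose 3 cells are not drawn, and Alox5 is also high in the neutrophil gate at 126.7 CPM.

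Among the named gates, Mcpt8 and Prss34 were next highest after the basophil/mast gate in the granule progenitor gate, and Cpa3 in the stem and multipotent gate. The 1219 cells in no gate were left out of the orders given here and below. Of these cells, 27 had at least 3 thinned counts of 2 or more of Mcpt8, Cpa3, Ms4a2, Prss34, Fcer1a and Cd200r3. The orders thus do not show whether any gate ranked above the cells in no gate. Mcpt8 was at 88.8 CPM in the granule progenitor gate, 26.4 CPM in the stem and multipotent gate, 12.5 CPM in the neutrophil gate and 10.3 CPM in the monocyte gate, with no overlap between the intervals of neighbours. The place of the stem gate rested on 1 A965 cell with 59 of its 61 Mcpt8 counts, and the A963 cells of that gate were at 1.58 CPM. The remaining gates, the erythroid one at 2.68 CPM among them, lay lower and overlapped. It was counted in 11.4% of thinned granule progenitor cells (27.1% without thinning; median 37611.5 counts) and in 2.57% of thinned erythroid cells (8.47% without thinning; median 41506 counts). Erythroid cells should lack Mcpt8, so their share is taken here as the background level. Of the 210 granule progenitor cells with Mcpt8, 125 had 1 count, 35 had 2 and 50 had at least 3, with a highest value of 353. The 20 erythroid cells with Mcpt8 all had 1.

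Cpa3 was at 61.5 CPM (51.8 to 72.5) in the stem and multipotent gate, in 13 of 140 cells (3 of them with at least 3 counts), and at 48.6 CPM (47.1 to 50.2) in the granule progenitor gate, in 5.59% of cells. This order did not hold within both tags. A965 had 122 CPM of Cpa3 in the stem gate and 54.6 CPM in the granule progenitor gate, whereas A963 had 11.8 CPM in the stem gate, with no cell at 3 or more counts, and 40.5 CPM in the granule progenitor gate. In the erythroid gate it was at 1.0 CPM, in 0.899% of cells. Ms4a2 was at 19.9 CPM in the stem gate and 15.3 CPM in the granule progenitor gate, with overlapping intervals, and at 0.353 CPM in the erythroid gate; 2 stem-gate cells had at least 3 thinned counts of it. Prss34 was at 107 CPM in the granule progenitor gate, where 27 of 1844 cells had at least 3 thinned counts, and at 36.7 CPM in the neutrophil gate, where 5 of 3357 did. In the stem gate it was at 58.1 CPM (48.7 to 68.8), with 132 of its 134 counts in 4 A965 cells. Only 1 of those cells had at least 3 thinned counts (65). The Prss34 level in these gates thus came from few cells: the highest thinned count was 598 in a granule progenitor cell and 208 in a neutrophil-gate cell.

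Fcer1a was at 4.62 CPM in the granule progenitor gate, from 15 cells with at least 3 thinned counts, and at or below 1.68 CPM in every other gate apart from the basophil/mast one. Cd200r3 was at 1.44 CPM in the granule progenitor gate, and from there down no neighbouring gates were separated by their intervals. The highest Cd200r3 count of a thinned granule progenitor cell was 10.

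Alox5 had its own order of levels. After the basophil/mast gate came the neutrophil gate at 126.7 CPM (124 to 129), the megakaryocyte gate at 40.4 CPM (29.8 to 53.6), the granule progenitor gate at 18.1 CPM (17.2 to 19.1), the monocyte gate at 5.32 CPM (4.75 to 5.93) and the erythroid gate at 3.12 CPM (2.55 to 3.77), with no overlap between neighbours. Below that, the plasmacytoid dendritic, lymphoid, stem and conventional dendritic gates overlapped. Within A965 the megakaryocyte gate was at 21.2 CPM (9.69 to 40.2) on 9 counts, not separated from the granule progenitor gate at 20.5 CPM. In A963 the megakaryocyte gate was at 51.1 CPM (36.3 to 69.8) and the granule progenitor gate at 13.7 CPM. No megakaryocyte-gate cell had at least 3 thinned counts of Alox5. Alox5 was counted in 58.2% of thinned neutrophil-gate cells and 1.41% of erythroid-gate cells. Its highest thinned count was 15 in a neutrophil-gate cell and 18 in a basophil/mast-gate cell.

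Gzmb did not behave as a gene of the whole gate. It had 86 counts in the library, in 14 cells, too few for a ratio between the gate and the rest. A single A963 cell of the basophil/mast gate held 49 of them, beside 123 counts of Cpa3, 4 of Alox5, 2 of Mcpt8, 2 of Ms4a2 and 0 of Prss34. The next cell, of A965, held 14 and no count of any other of the 8 genes; it was 1 of the 3 cells of the natural killer and T cell gate. The level of Gzmb was thus highest in that gate, at 231 CPM (126 to 388), against 69.7 CPM (53.2 to 89.7) in the basophil/mast gate, each value resting mainly on 1 cell. The other 12 cells had 1 to 4 counts each. Some were rich in the other genes. An A963 cell in no gate, with 4 Gzmb counts, had 389 of Mcpt8 and 1033 of Prss34. An A963 cell of the basophil/mast gate, with 3, had 527 of Mcpt8 and 745 of Prss34. Others had no count of the other genes, such as a neutrophil-gate cell with 1 Gzmb count. In all, 5 of the 53 basophil/mast cells had a Gzmb count before thinning. Gzmb had 0 counts in the granule progenitor, monocyte, stem, megakaryocyte and both dendritic gates. If 3 cells are taken as the limit for a count of 0, 0 of 1844 granule progenitor cells allows a share of up to 0.163%.

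Single cells show how far the genes were expressed together. With at least 3 thinned counts taken as detection, Cpa3 was detected in 184 cells, Mcpt8 in 128, Ms4a2 in 124, Prss34 in 93, Fcer1a in 50, Cd200r3 in 22 and Gzmb in 2. The Cd200r3, Fcer1a and Prss34 cells lay mostly inside the larger sets. All 22 Cd200r3 cells also had Mcpt8, Cpa3 and Prss34, and 21 had Ms4a2. Of the 50 Fcer1a cells, 48 had Mcpt8, 48 had Cpa3, 47 had Ms4a2 and 45 had Prss34. Of the 93 Prss34 cells, 82 had Mcpt8, 82 had Cpa3 and 80 had Ms4a2. In the other direction, 99 of the 184 Cpa3 cells had Mcpt8 and 82 had Prss34. Alox5 was detected in 601 cells, of which 46 (7.65%) had Mcpt8.

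**Figure D2:**
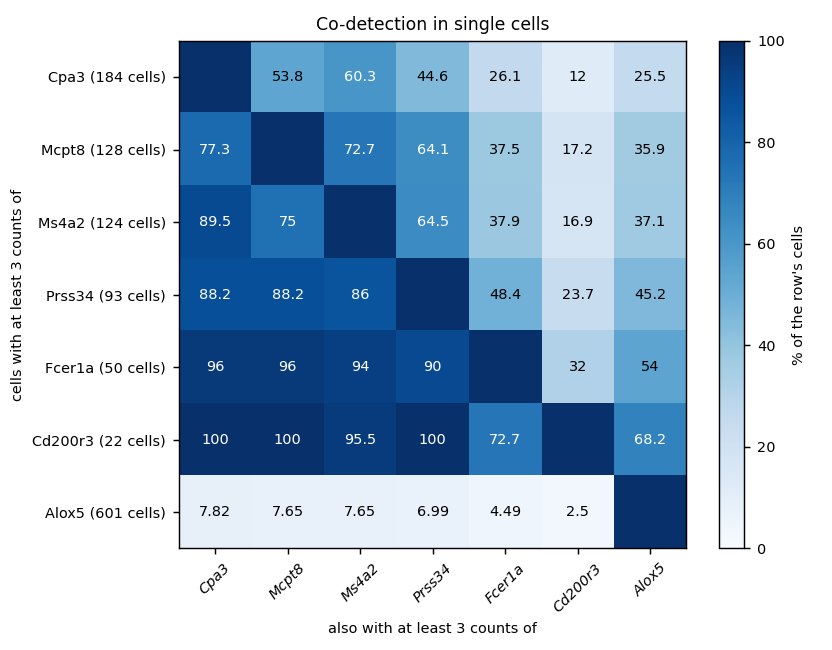
Share of the cells with at least 3 thinned counts of the row's gene that also had at least 3 of the column's gene, in percent. Cells with Cd200r3 or Fcer1a nearly always had Cpa3, Mcpt8, Ms4a2 and Prss34, whereas Alox5 cells had any of them in at most 7.82% of cases.

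Counting Mcpt8, Cpa3, Ms4a2, Prss34, Fcer1a and Cd200r3 together, a set chosen after the values of Gzmb and Alox5 were known, 123 cells had at least 2 of the 6. The basophil/mast gate held 49 of these cells, so 49 of its 53 cells had at least 2 of genes that the gate did not use. Another 38 were in the granule progenitor gate, 27 in no gate, 6 in the neutrophil gate, 2 in the monocyte gate and 1 in the stem gate. These 123 cells held 97.3% of all Prss34 counts, 93.8% of Fcer1a, 88.3% of Mcpt8, 81.7% of Ms4a2, 78.4% of Cpa3 and 74.5% of Cd200r3, but 4.29% of Alox5 and 18.6% of Gzmb. The cells were chosen by counts of the 6 genes and not of Alox5 or Gzmb. The high shares of the 6 and their contrast with Alox5 and Gzmb thus follow in part from the choice. They were 1.26% of A965 cells (70 cells; 0.981 to 1.59%) and 1.12% of A963 cells (53 cells; 0.843 to 1.47%), with overlapping intervals. None was found among the 245 cells of A961, A962 and A964.

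The genes were not equally frequent in cells that had few of them. Of the 110 cells with just 1 of the 6, the gene was Cpa3 in 65, Mcpt8 in 25, Ms4a2 in 11 and Prss34 in 9, and never Fcer1a or Cd200r3. Of the 25 cells with 2, 23 had Cpa3 and 18 had Ms4a2, while 1 had Prss34. Among the 36 cells with 4, 33 had Prss34 and 5 had Fcer1a. Cd200r3 was present only in cells with 5 (7 of 33) or 6 (15 of 15). Detection at a fixed depth also depends on a gene's counts per cell, and the part of this in these frequencies was not tested.

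Genes outside the set differed along with that number. The median thinned count of Mpo, the myeloperoxidase gene of granulocyte-monocyte progenitors, was 1, 9.5, 12, 26, 35, 25 and 15 in cells with 0 to 6 of the genes. Gata2 had medians of 0, 0, 1, 2, 3, 4 and 4, and Hdc of 0, 0, 1, 2.5, 3, 2 and 2; both are markers of the basophil/mast gate but were not used to count the genes. Elane, another progenitor protease gene, had medians of 1, 1, 1, 4.5, 2, 2 and 0. Median counts per cell before thinning were 24274 in cells with none and 13235 in cells with all 6.

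**Figure D3:**
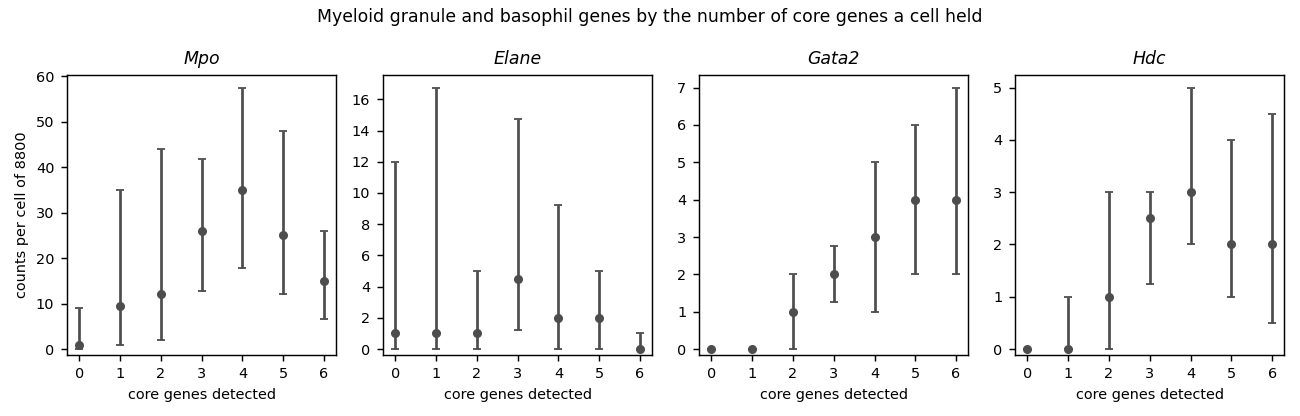
Median (points) and quartiles (bars) of thinned counts per cell of Mpo, Elane, Gata2 and Hdc, by how many of Mcpt8, Cpa3, Ms4a2, Prss34, Fcer1a and Cd200r3 (the core genes of the axis) a cell had at 3 or more counts. Mpo peaks at a median of 35 in the 36 cells with 4 genes, and Gata2 reaches its highest median of 4 in cells with 5 or 6.

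Within the basophil/mast gate the genes split the cells further. In 39 of the 53 cells Mcpt8 had at least 3 counts, with a median of 76, and 34 of these also had Prss34 (median 112). In the other 14 cells, 7 of A965 and 7 of A963, Prss34 was detected in 2 and Cd200r3 in 0, while Cpa3 was detected in 12 (median 9.5, against 26 in the Mcpt8 cells) and Ms4a2 in 12 (median 7, against 15). The cell with most Gzmb was one of these 14. They were grouped after their values were seen and are described without a test.

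The related genes, given by lists chosen with results of these data known, are read against the same 23.2% of all genes higher and 8.35% lower in the basophil/mast gate. Of 12 IgE receptor signalling genes, 5 were at least 2-fold higher and 0 lower. They were Lat2 (144 CPM in the gate and 41.9 in the rest, 3.44-fold) and, below 100 CPM in the gate and named after their values were seen, Lat (21.5-fold), Gab2 (7.49-fold), Plcg1 (6.02-fold) and Fyn (4.22-fold), which encode adaptors, a phospholipase and a kinase of the pathway. Fcer1g, the gamma chain that the IgE receptor shares with other receptors, was at 940.3 CPM in the gate and 1059 CPM in the rest (0.888-fold). Of the 3 chains of the receptor, alpha and beta thus marked the gate and gamma did not.

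Of 4 measured mast cell granule genes, 3 were higher and 1 was lower. The mast cell protease genes Mcpt2 and Mcpt9 had too few counts for a ratio: 0 in the gate, and 12 and 18 in the rest. Cd63, a granule membrane protein used to read degranulation, was at 1540.5 CPM in the gate and 299.9 CPM in the rest (5.14-fold). Srgn, the proteoglycan core on which granule proteases are stored, was at 3291 CPM in the gate and 904 CPM in the rest (3.64-fold), and Ndst2, an enzyme of heparin synthesis, was 10.6-fold higher. The granule progenitor gate was closer for Srgn, at 2700 CPM in A965 and 1877 CPM in A963. The basophil/mast gate had 3687 CPM of Srgn in A965 and 2880 CPM in A963. Ctsc, which activates granule proteases, was the lower one at 0.440-fold; Ndst2 and Ctsc were named after their values were seen. Ctsg, listed with the granzymes and also a marker of the granule progenitor gate, was 2.17-fold higher, at 2302 CPM in the gate and 1063 CPM in the rest. Its level was higher still in the granule progenitor gate, at 3448 CPM in A965 and 2887 CPM in A963. The basophil/mast gate had 2768 CPM of Ctsg in A965 and 1819 CPM in A963.

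The leukotriene pathway did not move as a whole. Alox5ap, the protein that presents substrate to 5-lipoxygenase, was at 730.2 CPM in the gate and 695 CPM in the rest (1.05-fold). Lta4h, which makes leukotriene B4, was lower, at 116 CPM in the gate and 394 CPM in the rest (0.295-fold). Ltc4s, which makes leukotriene C4, was 9.40-fold higher on 17 counts in the gate. Ltc4s, Abcc1 (3.63-fold), Hpgds (4.22-fold on 4 counts) and the lower Ptgs1 (0.213-fold) were named after their values were seen; in all, 3 of 7 genes were higher and 2 lower.

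Of 12 transcription factors of these lineages, 8 were higher and 1 lower. Gata2, itself a gate marker, was at 445 CPM in the gate and 5.37 CPM in the rest. Ikzf2 was 35.2-fold higher (171 CPM in the gate and 4.85 in the rest), Cebpa 8.95-fold (375 and 41.9 CPM) and Runx1 7.22-fold (274 and 37.9 CPM). The lower one, named after its value was seen, was Mitf, a factor of mast cell development, with 1 count in the gate (0.322-fold, 0.00813 to 1.8). Of 11 receptors, 8 were higher, the gate marker Il1rl1 among them, and 1 was lower. Il3ra, the alpha chain of the interleukin-3 receptor, was 4.97-fold higher (127 CPM in the gate and 25.4 in the rest) and Csf2rb, its signalling chain, 3.71-fold (231 and 62.3 CPM). The lower one was the monocyte chemokine receptor Ccr2 (0.0811-fold). Of 7 cytokine genes 6 were higher, but 2 of them, Csf1 and Il4, are gate markers. These counts are relative to total counts per cell group, and the gate cells had a median of 14019 counts.

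The genes most like a member were found by Pearson correlation of log2(CPM + 10) over the 9 gates with at least 50 cells, among 4294 genes. These values describe 9 points of 1 library and are dominated by the 1 gate where most of these genes are high. Prss34 was the gene most like Mcpt8 (r = 0.993), Csrp3 the one most like Ms4a2 (0.992), Rapsn the one most like Cpa3 (0.986) and Cd200r3 the one most like Fcer1a (0.998). No likeness is given for Gzmb, since 49 of its 60 counts in the basophil/mast gate came from 1 cell. For Alox5 the closest were Arap3 (0.971), Arfgef1 (0.962), Hipk1 (0.961), Cxcr2 (0.952), which was highest in the neutrophil gate, and Hdc (0.949).

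Between the tags loaded with most cells, 2 of the 7 measured members differed by at least 1.5-fold over all cells, 1 in each direction, where 6.00% of 16017 genes were higher in A965 and 8.65% were lower. Alox5 was at 50.8 CPM in A965 against 33.3 CPM in A963, a ratio of 1.53 (1.47 to 1.59). Prss34 was at 82.0 CPM in A965 against 128 CPM in A963, a ratio of 0.643 (0.628 to 0.658). The other 5 lay between 0.746 (Cd200r3) and 1.35 (Cpa3), with Mcpt8 at 59.4 CPM in A965 and 67.0 CPM in A963, Ms4a2 at 12.3 and 11.6 CPM, and Fcer1a at 3.54 and 4.53 CPM. Gzmb had 23 counts in A965 and 63 in A963, too few for a ratio.

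The Prss34 value rested on few cells. The 10 cells with most Prss34 held 49.6% of its counts in A965 and 51.9% in A963, and 47 A965 cells and 46 A963 cells had at least 3 thinned counts. The Alox5 value was spread over many cells: 10 cells held 2.16% of its counts in A965 and 4.40% in A963. In the neutrophil gate, which had most Alox5 counts, Alox5 was at 131.6 CPM in A965 against 117 CPM in A963, a ratio of 1.12 (1.08 to 1.17), under the 1.5-fold limit. Other gates with fewer Alox5 counts differed from this. Alox5 was at 6.21 CPM in A965 and 3.49 CPM in A963 in the monocyte gate, at 5.30 CPM in A965 and 2.59 CPM in A963 in the erythroid gate, and at 20.5 CPM in A965 and 13.7 CPM in A963 in the granule progenitor gate. In the basophil/mast gate it was at 221 CPM in A965 and 284 CPM in A963 (0.779, 0.590 to 1.03), and in the megakaryocyte gate at 21.2 CPM in A965 and 51.1 CPM in A963. The neutrophil gate made up 34.4% of A965 cells (33.2 to 35.7%) and 29.7% of A963 cells (28.4 to 31.1%), and its median counts per cell were 26085 in A965 and 16858 in A963. None of the 5 members measured in the neutrophil gate passed 1.5-fold, where 3.75% of 11171 genes were higher in A965 and 7.97% lower. For the members other than Alox5 this depended on which cells the gate held: with another random thinning Prss34 was at 0.469, Mcpt8 at 0.735 and Cpa3 at 0.833, and without the cells that a doublet caller marked they were at 0.264, 0.425 and 0.267. No direction is given for them in this gate.

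In the basophil/mast gate, cell by cell, the tags overlapped for every member. Thinned counts of Mcpt8 had a median of 45 (0 to 235) in the 27 A965 cells and 57.5 (0 to 306) in the 26 A963 cells. Cpa3 had a median of 24 (0 to 57) in A965 and 19.5 (1 to 87) in A963, and Ms4a2 one of 13 (4 to 26) in A965 and 14 (0 to 31) in A963. Prss34 had a median of 30 (0 to 436) in A965 and 85 (0 to 522) in A963, with 8 A965 cells and 6 A963 cells at 0. Fcer1a, Cd200r3 and Alox5 had medians of 0 to 2 in both tags.

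**Figure D4:**
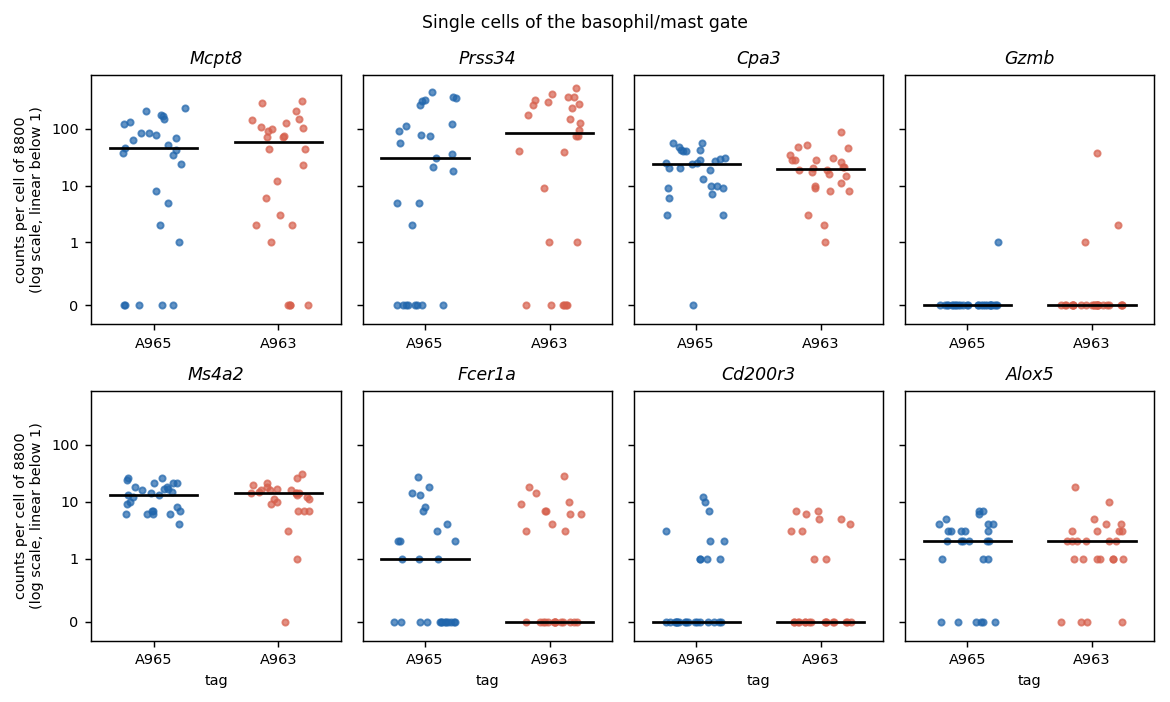
Thinned counts per cell (of 8800) of each gene in the 27 A965 cells and 26 A963 cells of the basophil/mast gate, on an axis that is linear below 1 and logarithmic above; black lines are medians. The tags overlap for every gene, and Prss34 spans 0 to 522 counts.

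Summed over the gate, Ms4a2 was at 1382 CPM in A965 and 1339 CPM in A963 (ratio 1.03, 0.919 to 1.16), Fcer1a at 424 and 428 CPM (0.991, 0.803 to 1.22), Mcpt8 at 6955 and 7329 CPM (0.949, 0.902 to 0.998) and Cpa3 at 2629 and 2396 CPM (1.10, 1.01 to 1.20). Prss34 was at 9672 CPM in A965 against 14721 CPM in A963, a ratio of 0.657, the only one of 7 past 1.5-fold, where 6.51% of 1244 genes were higher in A965 and 6.11% lower. With another random thinning, which changes slightly which cells enter the gate, the same ratio was 1.09, so no direction is given for Prss34 within the gate.

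In the granule progenitor gate, Prss34 and Fcer1a, 2 of the 7 members measured there, fell past 1.5-fold in A965, where 4.29% of 12243 genes were higher and 3.95% lower. Prss34 was at 83.2 CPM in A965 and 166 CPM in A963 (0.501, 0.480 to 0.524), with at least 3 thinned counts in 13 of 1053 A965 cells and 14 of 741 A963 cells. Fcer1a was at 2.83 CPM in A965 and 8.68 CPM in A963 (0.326, 0.261 to 0.405), in 5 A965 cells and 10 A963 cells at that limit. Cpa3 went the other way, at 54.6 CPM in A965 and 40.5 CPM in A963 (1.35, 1.25 to 1.45), and Mcpt8 was at 81.1 CPM in A965 and 111 CPM in A963 (0.731, 0.696 to 0.768). So few cells carry Prss34 and Fcer1a in this gate that the counting intervals understate the error, and the A965 and A963 cells differed in median depth, 44228 counts against 30304.

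**Figure D5:**
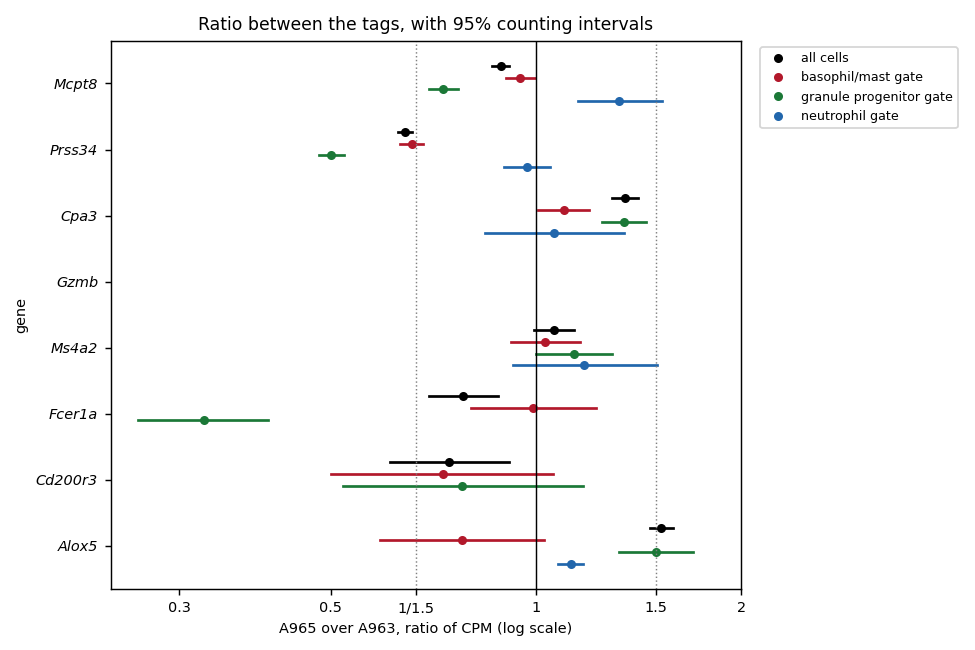
Ratio of A965 over A963 in CPM for each gene, on a log axis, over all cells and within 3 gates, with exact 95% counting intervals; dotted lines mark 1.5-fold and ratios on fewer than 100 counts are not drawn. Prss34 lies below 1 over all cells (0.643) and in the granule progenitor gate (0.501), and Alox5 lies above 1 over all cells (1.53) and nearer to 1 in the neutrophil gate (1.12).

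The small tags had few of these transcripts apart from Alox5. Mcpt8 was at 2.54 CPM in A961, 8.06 CPM in A962 and 4.66 CPM in A964, against 2.68 CPM in the erythroid gate of all tags. The A962 interval (5.22 to 11.9 CPM) lay above the erythroid one (2.16 to 3.29 CPM), but 1 cell held 16 of the 25 A962 counts. In A964, 1 cell held 8 of the 11. Cpa3 had 2 counts in A962 and 0 in A961 and A964, and Gzmb and Fcer1a had 0 in all 3. Prss34 had 7 counts in A961, 10 in A962 and 1 in A964, and Ms4a2 had 0, 2 and 2. Alox5 was at 13.7 CPM in A961, 18.7 CPM in A962 and 29.7 CPM in A964. With 245 cells in all, a population as rare as the basophil/mast gate in A965 or A963 could be missed.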

How the data were processed

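Cells from bone marrow were captured on BD Rhapsody, and cDNA amplification followed TAS-Seq, per the labels' protocols. The authors deposited whole-number counts per gene and cell; whether they count molecules or reads, and the aligner and annotation, are not given in the sources used here. Values of 2 were 54.7% as many as values of 1. The submitters' processing notes name R 4.2.1, Seurat 4.2.0 and the build GRCm38, with no role given. Of 10731 cells, 190 named doublets and 6 with no tag were set aside, and 7 were removed (under 500 genes or over 20% mitochondrial counts), leaving 10528. Cell totals ran from 8822 to 140994. Scrublet (scanpy 1.11.5) called 223 cells (2.12%), which were kept.

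A marker was on with at least 2 thinned counts and at least 0.1 of its 99.5th percentile; ties stayed ungated. CPM have exact Poisson intervals, shares exact Clopper-Pearson ones and ratios exact conditional binomial ones, without a test (Python 3.11.15, scipy 1.17.1). A gene needed 100 counts over both sides. Ratio steps were checked on simulated counts. Members and lists were chosen with earlier results of these data known. Named from each list were up to 4 genes with the largest ratio and at least 100 CPM in the gate, and for likeness the 5 closest genes. Of 178 list and marker genes, 16 were not analysed here. Alternatives were other marker limits, thinning, scaling, count minimums, doublet and cell filters. Promoters are RefSeq's; all 8 matched.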

Additional observations from a re-analysis of the deposited data

Results flagged for a closer look

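The 190 cells that the authors had named doublets entered no comparison above. Of these, 5 (2.63%, exact interval 0.860 to 6.03%) had at least 3 thinned counts of 2 or more of Mcpt8, Cpa3, Ms4a2, Prss34, Fcer1a and Cd200r3. This was singled out because the signal appears in cells left out of the main measurement. The share among single-tag cells was 1.17% (0.972 to 1.39%), within the interval of the doublet-named cells. A cell named doublet can hold transcripts of more than a single cell, so these shares are not of like units. One of the doublet-named cells (0.526%) entered the basophil/mast gate.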

How the results depend on the processing

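The ratio of the basophil/mast gate over all other cells kept its direction for every member in all alternatives run, with 7 or 8 members at least 2-fold higher. Its size moved: Prss34 lay between 145 and 576, Ms4a2 between 76.7 and 352, Cpa3 between 81.0 and 344, Fcer1a between 34.5 and 388, Cd200r3 between 13.97 and 240.0 and Alox5 between 4.49 and 7.33, while the share of all genes called lay between 5.55% and 24.5%. Where 8 members were higher, Gzmb was the added one, through a lower count minimum. The Gzmb ratio ran from 7.90 to 1370. In the gate as reported, 49 of its 60 counts came from 1 cell. The gate share of A965 was 0.287% with the lower marker level. Without the granule progenitor list, an alternative chosen after seeing the data, it was 0.916% in A965 and 0.975% in A963. Over all cells, 1 member in place of 2 passed 1.5-fold between A965 and A963 with median-of-ratios scaling, and 0 with 10 CPM added. Within the basophil/mast gate, the count of members past 1.5-fold was 1 as reported, 0 with 2 markers, with a higher or a lower marker level or with thinned cells, 2 with 4 markers, 30 counts or no count minimum, and 3 without the granule progenitor list. Prss34 there reversed to 1.09 with another thinning seed and to 1.23 without the cell filter. In the neutrophil gate Alox5 stayed between 1.11 and 1.18, while Prss34 ran from 0.264 to 1.016, Cpa3 from 0.267 to 1.19 and Mcpt8 from 0.425 to 1.39. In the granule progenitor gate Prss34 stayed between 0.380 and 0.601, Fcer1a between 0.214 and 0.687, and Alox5 between 1.29 and 1.66. The cause of these changes was not tested. No paired analysis was possible because no tag had a replicate.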
